A study of Arabidopsis thaliana with 8 samples.

Results

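*CESA5* (At5g09870) and *CESA6* (At5g64740) encode catalytic subunits of the cellulose synthase of *Arabidopsis*. They were chosen by locus, and each is represented by 1 probe set, 250505_at for *CESA5* and 247251_at for *CESA6*, among 22746 probe sets tested. Transcript levels came from 8 ATH1 GeneChips of Affymetrix, and every one of the 4 groups had 2 of these arrays. The groups were *yucca* seedlings immersed for 2.5 h in medium with 1 μM brassinolide (BL), *yucca* seedlings immersed in medium alone (mock), and wild-type (WT) Columbia (Col-0) seedlings given each of these treatments. BL is the most active brassinosteroid (BR), and BL treatment is called BR treatment here. All seedlings were grown in light and were 10 d old by the sample labels (the study's methods give a slightly younger age). The *yucca* mutant, in a Columbia background, overproduces auxin throughout its life, so it stands for a lasting and not a short exposure to auxin. Neither probe set is named in the platform annotation used here. Both carry their names through the study's supplementary list of BR-raised transcripts, which was drawn up from the same WT arrays, so a higher level after BR treatment of WT is not independent evidence. The probe set of *CESA6* is also printed in the study's list of values for BR-lowered transcripts, for a reason that is not given. The *yucca* arrays were not used to choose the members of the BR-raised list.

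Cellulose is made at the plasma membrane by a large complex that moves along cortical microtubules and spins glucan chains into microfibrils. In the primary walls of growing cells, the complex of *Arabidopsis* holds CESA1, CESA3 and a further kind of subunit, a place that CESA6 and its close relatives CESA2, CESA5 and CESA9 can take. Loss of *CESA6*, also known as *PROCUSTE1*, shortens the hypocotyl of dark-grown seedlings, and *CESA5* is also known for the cellulose of seed coat mucilage. BRs and auxin both promote cell elongation, which needs new wall material.

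BR treatment raised the *CESA5* transcript in both genotypes. In *yucca*, the intensity of *CESA5* was 314 and 339 on the arrays of BR-treated seedlings, against 189.8 and 186 on those of mock-treated seedlings. These are intensities in arbitrary units as the authors deposited them, on a linear scale and comparable only within a genotype. The BR arrays lay above the mock arrays, with no overlap, and each of the possible ratios of a BR to a mock array lay between 1.66 and 1.82. With 2 arrays per group a lack of overlap is easily reached by chance. Its share over all probe sets was not counted, so here and below it is only a description. The fold change in *yucca* was 1.73 (95% confidence interval 1.48 to 2.04), a log2 fold change of 0.79 (standard error, SE, 0.102, limma adjusted p = 0.0020). A transcript was called at the study's criteria, an adjusted p under 0.10 over all probe sets and a log odds that the gene changed (B) above 0. By these criteria *CESA5* rose in *yucca*, as did 1.76% of all probe sets.

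In WT, *CESA5* was at 606 and 537 after BR treatment, against 337 and 306 after mock treatment. Again the groups did not overlap, and the ratios of single arrays ran from 1.59 to 1.98. The fold change was 1.78 (95% confidence interval 1.51 to 2.08), a log2 fold change of 0.83 (SE 0.102, limma adjusted p = 0.00334), and *CESA5* was called, as were 1.21% of all probe sets in the upward direction. Group means were 326 ± 17.4 after BR and 188 ± 2.44 after mock treatment of *yucca*, and 571 ± 48.6 after BR and 322 ± 22.3 after mock treatment of WT (SD, n = 2 each). Over the mean of both genotypes, *CESA5* rose 1.76-fold (95% confidence interval 1.57 to 1.97, adjusted p = 0.000164 from limma), where 2.28% of probe sets rose. The WT call and this mean both rest on the WT arrays through which the probe set came to be named, so neither is independent evidence. Both *CESA5* calls and the call on their mean held under each alternative that was run.

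*CESA6* moved in the same direction as *CESA5* and by less. In *yucca*, its intensity was 1309.8 and 1236 after BR treatment, against 1022 and 844 after mock treatment. The groups did not overlap, but the mock arrays differed from each other by 21.1%, while the replicates of the other 3 groups differed by between 5.97% and 9.31%. The log2 fold change was 0.45 (SE 0.115, limma adjusted p = 0.0527), or 1.37-fold with a 95% confidence interval of 1.14 to 1.64. The adjusted p met its criterion, but B was −2.07, so *CESA6* was not called in *yucca*. By the adjusted p alone, 4.56% of probe sets were higher there. In a fit of only the 4 *yucca* arrays, the adjusted p of *CESA6* was 0.205, which missed that criterion too.

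In WT, *CESA6* was at 2211 and 2023 after BR treatment, against 1513 and 1392 after mock treatment. No BR array fell within the range of the mock arrays. The log2 fold change was 0.54 (SE 0.115, limma adjusted p = 0.0405), or 1.46-fold with a 95% confidence interval of 1.22 to 1.75. B was −0.73, and *CESA6* was not called. By the adjusted p alone, 2.23% of probe sets were higher in BR-treated WT. In a fit of only the 4 WT arrays, with the same fold change, the adjusted p was 0.0211 and B was 0.0232, which is just past the criterion. Group means were 1273 ± 52.2 after BR and 933 ± 126 after mock treatment of *yucca*, and 2117 ± 133 after BR and 1453 ± 85.2 after mock treatment of WT (SD, n = 2 each).

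With the responses of both genotypes averaged, *CESA6* passed the test. The mean includes the WT arrays through which its probe set came to be named, so it is not independent evidence, and in *yucca* alone *CESA6* was not called. On the mean it rose 1.41-fold (95% confidence interval 1.24 to 1.61), a log2 fold change of 0.50 (SE 0.0815, limma adjusted p = 0.00507, B = 0.879). This call ended when any WT array was left out, or either array of BR-treated *yucca*, with log2 fold changes between 0.47 and 0.53. The residual spread of *CESA6* between replicates was 0.120 on the log2 scale, near the median of 0.112 over all probe sets, and that of *CESA5* was 0.0886.

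**Figure D1:**
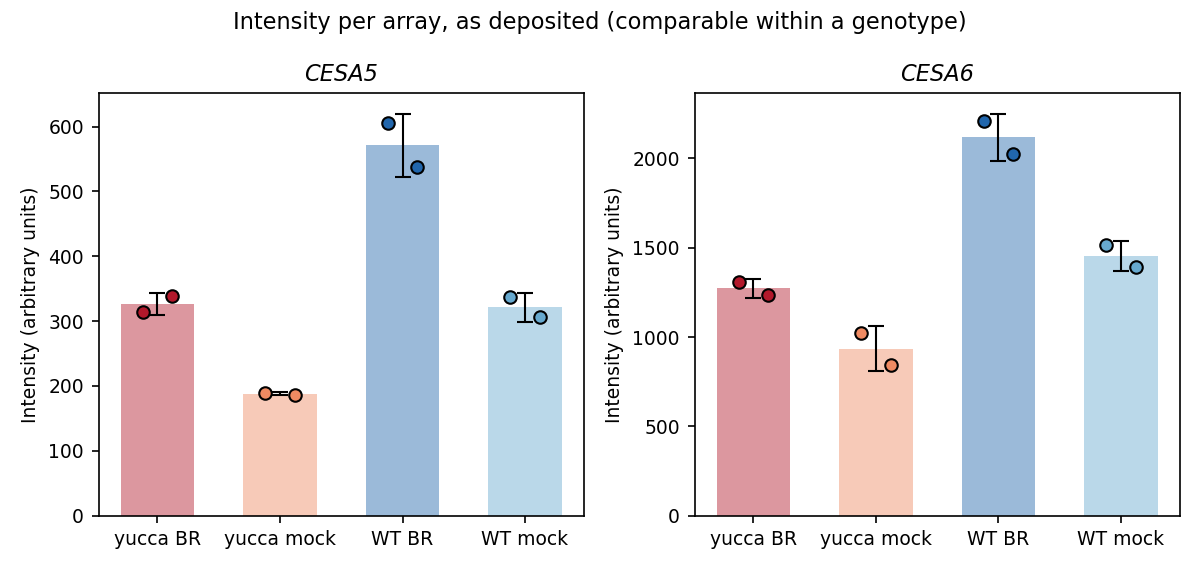
Deposited intensity (arbitrary units, linear axis from 0) of *CESA5* and *CESA6* on each array. Points are arrays, bars are group means and error bars are SD (n = 2), and in each genotype both BR arrays lie above both mock arrays, with *CESA5* means of 326 and 188 in *yucca* and 571 and 322 in WT.

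The responses of both members were small next to the largest changes on the arrays, but stood high among all probe sets. The log2 fold change of *CESA5* was exceeded by 1.12% of probe sets in *yucca* and by 0.668% in WT. That of *CESA6* was exceeded by 3.68% in *yucca* and 1.59% in WT. A high place in WT follows in part from how both probe sets were named, so only the *yucca* values are independent of the list. Of the 342 probe sets that the study lists as BR-raised in WT, 222 (64.9%) rose in *yucca* in the fit of all 8 arrays, *CESA5* among them. A fit of only the 4 WT arrays called all 342 in WT, and a fit of only the 4 *yucca* arrays, added after seeing the data, called 155 of them (45.3%) in *yucca*. Among these 342, *CESA5* ranked 169 and *CESA6* ranked 275 by log2 fold change in *yucca*, where the median of the list was 0.79. *CESA5* thus responded in *yucca* like the middle of that list, and *CESA6* lay in its lower part.

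The question of whether *yucca* seedlings respond less to BR was asked of each gene with the interaction of genotype and treatment. For *CESA5*, the response in *yucca* minus that in WT was −0.03 on the log2 scale (SE 0.145, limma adjusted p = 0.98), and the *yucca* fold change was 0.977 of the WT fold change, with a 95% confidence interval of 0.779 to 1.23. For *CESA6* the difference was −0.09 (SE 0.163, limma adjusted p = 0.936), a ratio of 0.94 with an interval of 0.728 to 1.21. Neither gene passed the test, as 0.0264% of all probe sets did. The intervals include smaller and larger responses in *yucca* than in WT, so they do not show that the responses were equal. Both probe sets were named for a rise on these WT arrays, which can tilt the difference below 0. The WT side of each difference is therefore not independent evidence.

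The response of *CESA5* was larger than that of *CESA6* by 0.34 in *yucca* and 0.29 in WT on the log2 scale. The mean of these differences was 0.31. In an exact permutation test, two-sided, with treatment labels exchanged within each genotype, p was 0.0556, which is the smallest value that the 36 arrangements of these arrays can give, so this test cannot reach 0.05. The difference is between the responses of the genes and says nothing of their levels, since intensities of different probe sets cannot be compared.

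**Figure D2:**
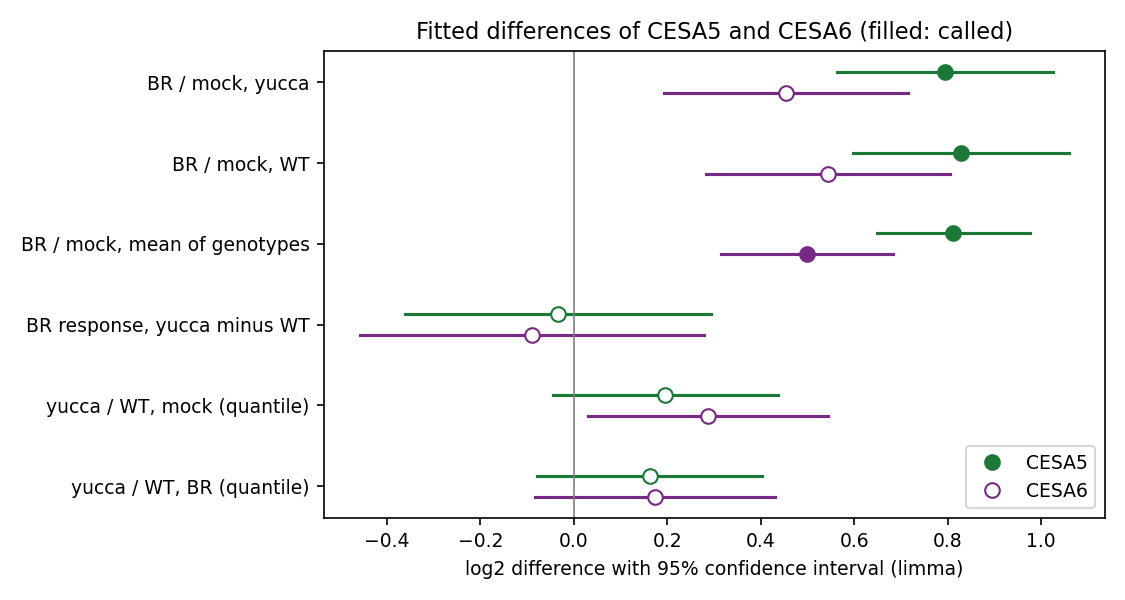
Log2 differences of *CESA5* and *CESA6* in each comparison, with 95% confidence intervals from limma and filled points for those called. The BR responses of both genes lie above 0, the *CESA6* response is called only for the mean of both genotypes (0.50), and the intervals of the difference in response between genotypes include 0.

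Levels in *yucca* were compared with those in WT after quantile normalization over all 8 arrays, because the deposited values appear to have been normalized separately for each genotype. As deposited, the median log2 difference between *yucca* and WT mock arrays was −0.87 over all probe sets, and it was −0.01 after quantile normalization. On the normalized values *CESA5* was at 437 and 479 in BR-treated *yucca*, 259 and 265 in mock-treated *yucca*, 438 and 381 in BR-treated WT, and 242 and 216 in mock-treated WT. The order of group means was BR-treated *yucca* (458 ± 30.1), BR-treated WT (409.7 ± 39.9), mock-treated *yucca* (262 ± 4.13) and mock-treated WT (229 ± 17.9; SD, n = 2 each). The arrays of BR-treated *yucca* and BR-treated WT overlapped, and the other neighbours in this order did not.

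*CESA5* in mock-treated *yucca* differed from mock-treated WT by a log2 fold change of 0.20 (SE 0.106, limma adjusted p = 0.163), and in BR-treated *yucca* from BR-treated WT by 0.16 (SE 0.106, limma adjusted p = 0.244). Neither difference was called, while 8.56% of probe sets were called higher in *yucca* among mock arrays and 8.26% among BR arrays. The numbers of probe sets called higher and lower were 1948 and 2000 for mock arrays on the normalized values, against 265 and 15356 as deposited, and 1879 and 1946 for BR arrays, against 204 and 15352. On the values as deposited, both *CESA5* differences turned to the opposite direction and were called, with log2 fold changes of −0.77 for mock and −0.81 for BR arrays. With array medians set equal instead, they were 0.21 and 0.15 and uncalled, as after quantile normalization. Direction and call thus depend on whether the genotypes were brought to a common scale. In each case the deposited value lay above the median shift between genotypes, which was −0.87 for mock and −0.86 for BR arrays.

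*CESA6* was at 1799.9 and 1696 in BR-treated *yucca*, 1418 and 1170.5 in mock-treated *yucca*, 1619.6 and 1482 in BR-treated WT, and 1096 and 1017 in mock-treated WT, on the quantile-normalized scale. Its groups followed the same order as those of *CESA5*, with means of 1748 ± 73.5, 1551 ± 97.4, 1294 ± 175 and 1056 ± 55.9 (SD, n = 2 each, in the order BR-treated *yucca*, BR-treated WT, mock-treated *yucca*, mock-treated WT). No neighbours in this order overlapped. The log2 fold change of *yucca* over WT was 0.29 for mock arrays (SE 0.113, limma adjusted p = 0.0659, B = −4.82) and 0.17 for BR arrays (SE 0.113, limma adjusted p = 0.244), and neither was called. As deposited these were −0.64 for mock arrays, not called, and −0.73 for BR arrays, called, both in the opposite direction. With array medians set equal they were 0.34 for mock and 0.23 for BR arrays, neither of them called.

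**Figure D3:**
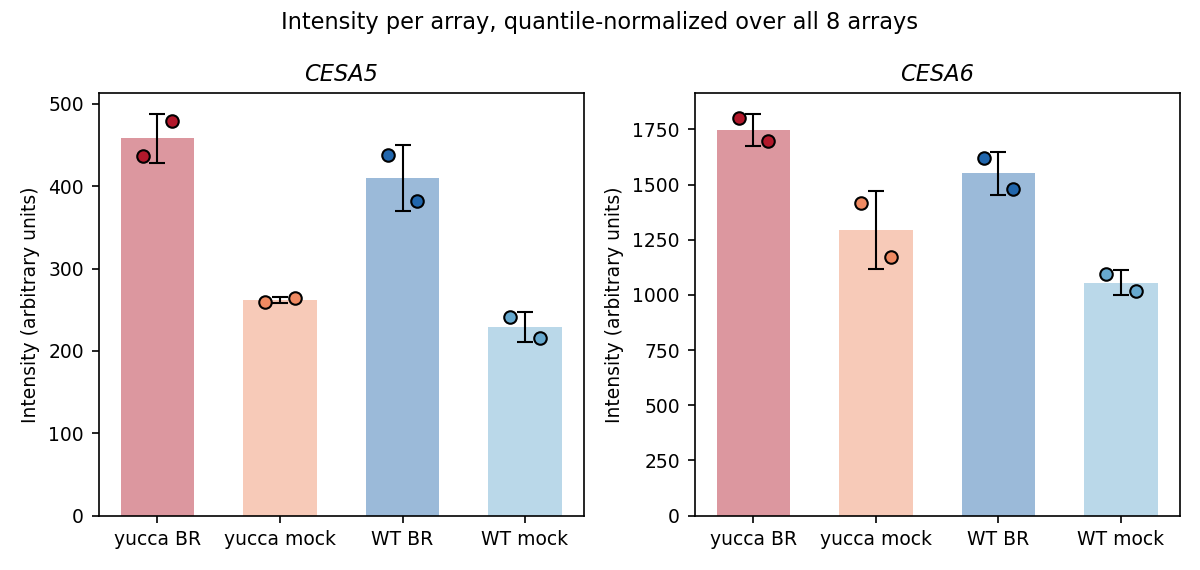
Intensity of *CESA5* and *CESA6* on each array after quantile normalization over all 8 arrays (arbitrary units, linear axis from 0). Points are arrays, bars are group means and error bars are SD (n = 2), and BR-treated groups lie above mock-treated groups in both genotypes, while *yucca* means are above WT means by differences that were not called.

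Probe sets of other genes of the cellulose pathway were examined from lists of names. None of the other 8 *CESA* genes had a probe set named here, so subunits of the primary wall complex other than *CESA5* and *CESA6* and those of the secondary wall were not analysed here. Of 17 other genes linked to cellulose synthesis, receptor kinases such as *THE1* among them, 6 were measured. All 6 had log2 fold changes above 0 after BR treatment in both genotypes. The share of all probe sets with values above 0 in both was not counted, so this is only a description. In *yucca* 3 rose, 0 fell and 3 were not called, with a median log2 fold change of 0.66, against 0.00 over all probe sets, of which 1.76% rose. In WT 2 rose, 0 fell and 4 were not called, with a median of 0.37, against −0.01 over all probe sets, of which 1.21% rose. Both that rose in WT, *THE1* and *CC1*, are on the study's list of BR-raised transcripts, so their count and values in WT are not independent evidence. Over the 4 genes outside that list the medians were 0.54 in *yucca* and 0.29 in WT.

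*THE1* (At5g54380), a receptor kinase through which seedlings respond to a lack of cellulose, was at 467 and 445 in BR-treated against 233 and 159 in mock-treated *yucca*, and at 820.01 and 866 in BR-treated against 462 and 491 in mock-treated WT. It rose in both genotypes, with log2 fold changes of 1.25 in *yucca* (adjusted p = 0.00185 from limma) and 0.82 in WT (adjusted p = 0.0251). *CC1* (At1g45688) encodes a companion protein that links cellulose synthase to microtubules, and it rose by 0.66 in *yucca* and 0.56 in WT on the log2 scale. *COB* (At5g60920) encodes COBRA, a membrane-anchored protein needed for the orientation of microfibrils. It rose in *yucca* (0.66, adjusted p = 0.00638) and was not called in WT (0.44, adjusted p = 0.07), and it is not on the study's list. *CC2* (At5g42860), the relative of *CC1*, had log2 fold changes of 0.68 in *yucca* and 0.14 in WT, with no call in either. None of the 6 genes had a called interaction between genotype and treatment. Of all probe sets only 0.0264% did, so this count says little of these genes.

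Of 30 cellulose synthase-like (*CSL*) genes, whose products make other wall glycans or have no settled product, 11 were measured. All 11 had log2 fold changes above 0 in both genotypes, some of them by little. The share of all probe sets with this was not counted. For the genes on the study's BR-raised list, the sign in WT was fixed by that choice. In *yucca* 3 rose, 0 fell and 8 were not called (median 0.30), where 1.76% of all probe sets rose around a median of 0.00. In WT 4 rose, 0 fell and 7 were not called (median 0.50), where 1.21% rose around a median of −0.01. The 4 were *CSLA14*, *CSLB4*, *CSLB5* and *CSLC4*. Of these, *CSLA14*, *CSLB4* and *CSLB5* were named only through the study's list of BR-raised transcripts, so the count and median in WT are partly fixed by how genes were named. Among the 8 *CSL* genes outside that list, 2 rose in *yucca* and 1 in WT, with medians of 0.27 in *yucca* and 0.26 in WT. *CSLC4* (At3g28180), which makes the glucan backbone of xyloglucan, was at 602 and 675 in BR-treated against 392 and 372 in mock-treated *yucca*, and at 935 and 812 in BR-treated against 584 and 479 in mock-treated WT. Its log2 fold changes were 0.74 in *yucca* (adjusted p = 0.00839 from limma) and 0.72 in WT (adjusted p = 0.0168), close to those of *CESA5*. *CSLC5* (At4g31590), of the same family, rose in *yucca* (0.94, adjusted p = 0.00193) and was not called in WT (0.50, adjusted p = 0.0667). *CSLB4* (At2g32540) rose by 0.68 in *yucca* and 0.59 in WT, but its probe set can match more than a single gene. *CSLB5* (At4g15290) rose in WT (0.78) and was not called in *yucca* (0.54). *CSLA14* (At3g56000), singled out after its values were seen, rose in WT (0.81, adjusted p = 0.0181) and had a log2 fold change of 0.08 in *yucca* (adjusted p = 0.862), where its intensity was 17.1 and 16.3 after BR, against 13.4 and 18.6 after mock treatment. No measured *CSL* gene had a called interaction, *CSLA14* (−0.73, adjusted p = 0.394 from limma) included. With 0.0264% of all probe sets called, that count too says little of these genes.

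**Figure D4:**
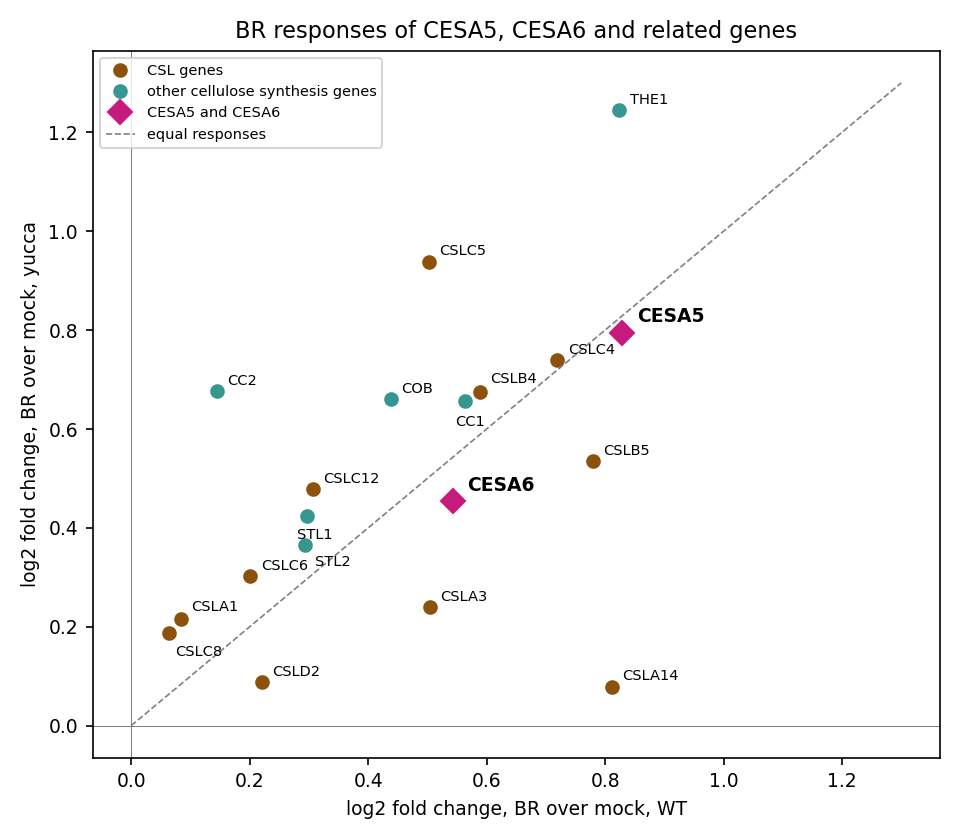
Log2 fold change of BR over mock in WT (horizontal axis) and *yucca* (vertical axis) for *CESA5*, *CESA6* and the 17 measured genes of both lists, with a dashed line of equal responses. All points lie above 0 on both axes, *CESA5* (0.79 in *yucca*, 0.83 in WT) and *CESA6* (0.45 in *yucca*, 0.54 in WT) lie close to the line, and *THE1* has the largest *yucca* value of the genes plotted (1.25).

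The genes most like each member were sought among 13992 other probe sets with a single named gene, as the Pearson r of quantile-normalized log2 values over the 8 arrays. These arrays fall in 4 groups, so r mostly reflects the pattern of the groups, and it is given as a description. The candidates include 485 probe sets named by the study's lists alone and leave out 8250 with no gene named here. Genes of those hormone response lists are thus favoured among them. The highest r to *CESA5* were those of At5g48460 (0.99), *LLG1* (At5g56170, 0.99), *TSD2* (At1g78240, 0.989), *AGP18* (At4g37450, 0.988) and *EXLA2* (At4g38400, 0.988). All of these but At5g48460 are on the study's list of BR-raised transcripts, drawn up from the same WT arrays, so their likeness is not independent evidence. *LLG1* encodes a membrane-anchored protein, *TSD2* a putative methyltransferase of pectin synthesis, *AGP18* an arabinogalactan protein and *EXLA2* an expansin-like protein. Their responses differed in size, with log2 fold changes of 0.44 for *LLG1* and 2.34 for *EXLA2* in *yucca*, and 0.52 and 2.20 in WT. With each genotype's mean taken out of the deposited values, *LLG1* stayed among the 5 and the others were *SAUR9*, *CSLC4*, *NDL3* and *APT5*.

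For *CESA6* the highest r were those of *FER* (At3g51550, 0.995), *CML42* (At4g20780, 0.987), *EXLA1* (At3g45970, 0.986), At3g55840 (0.981) and At4g32140 (0.976). Of these, *CML42*, *EXLA1* and At3g55840 are on the study's list of BR-raised transcripts, and *FER* and At4g32140 are not. *FER* encodes FERONIA, a receptor kinase of the cell surface, and *CML42* a calmodulin-like protein. *FER* had log2 fold changes of 0.34 in *yucca* and 0.38 in WT. With each genotype's mean taken out, *FER* and At4g32140 stayed among the 5, with At1g12100, *RALFL33* and At4g38690. *CESA5* and *CESA6* had an r of 0.928 to each other, by which *CESA6* ranked 115 for *CESA5*, and *CESA5* ranked 74 for *CESA6*.

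The treatment labels were checked with known targets of BR feedback. *DWF4*, *CPD* and *BR6OX2*, genes of BR synthesis that BRs repress, fell in both, with median log2 fold changes of −2.37 in *yucca* and −2.63 in WT, where 1.66% and 0.945% of probe sets fell. Each was named through the study's list of BR-lowered transcripts, so their direction in WT is not independent. The transcript of *YUCCA* itself was not analysed here. The median intensity was 44.7 to 46.4 on *yucca* arrays and 86.8 to 90.03 on WT arrays, and replicates had a Pearson r of 0.994 to 0.998 across probe sets. None of 5 markers of green tissue and none of 9 of the secondary wall of xylem had a probe set named here. Of 3 root hair genes, *EXPA7*, *COBL9* and *EXPA18*, none was called after BR in either genotype. Over all probe sets, 1.76% rose and 1.66% fell in *yucca*, and 1.21% rose and 0.945% fell in WT. With so few called, this count says little of root hair genes. *COBL9* was lower in mock-treated *yucca* than in mock-treated WT (log2 fold change −0.81, adjusted p = 0.000885 from limma), as were 8.79% of probe sets. Its probe set was named only through the study's list of auxin-lowered transcripts, so this direction is tied to how it was named. In the same comparison *EXPA7* (−0.82) and *EXPA18* (−1.53) also had lower values and were not called. The part of tissue make-up in the *CESA* values was not tested, and in RNA of seedlings fewer cells of a type and less RNA per cell cannot be told apart.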

How the data were processed

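Total RNA of seedlings was hybridized to 8 ATH1 arrays. The authors normalized the arrays with rma (background correction, quantile normalization and probe summary) and deposited 1 intensity per probe set, on the linear scale. Intensities are in arbitrary units. Each array holds 22810 probe sets, of which 64 controls were left out. Between arrays of a genotype 19 to 86 probe sets had values equal to the last digit deposited, and between genotypes 0, so each genotype appears to have been normalized separately, which the methods do not state. The platform annotation named 13508 probe sets for a single gene and 503 for several genes. A further 485 probe sets were named by the study's supplementary lists alone, and 8250 have no gene named here.

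The fit was made on log2 intensities of all 8 arrays, using limma (version 3.58.1, R version 4.3.3) with 1 coefficient per group, 4 residual degrees of freedom and empirical Bayes moderation with an assumed proportion of 0.01 changed genes. P-values were adjusted over all probe sets by the method of Benjamini and Hochberg. The labels do not say whether replicates were grown apart, and the study's methods call them biological replicates. Their number, 2 per group, limits the precision. *CESA5*, *CESA6* and the lists were chosen with earlier results of these data known. Named genes are both members, the 4 genes of each list with the largest mean BR response and the 5 genes most like each member. Replicates of the same number deviated together in *yucca* (r = 0.407) and WT (r = 0.225) but not across genotypes (−0.07 to −0.12). The numbers were not taken as pairs in the main fit, so any pairing of BR and mock arrays within a genotype was left out of it. The replicate block among the alternatives was shared by both genotypes, and a separate block for each genotype was not fitted. The fit was tested on simulated data.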

Additional observations from a re-analysis of the deposited data

How the results depend on the processing

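*CESA5* was called for BR in *yucca*, in WT and on their mean under every alternative, with log2 fold changes of 0.74 to 0.85, 0.74 to 0.92 and 0.77 to 0.86 when single arrays were left out. The uncalled *CESA6* response in WT (0.54) became a call when the groups compared were fitted alone, with a replicate block, with an intensity trend, with no B criterion, with a proportion of 0.05, and without either array of mock-treated *yucca*. Its value there was 0.54 throughout, and without single arrays it ran from 0.48 to 0.61. With no B criterion, *CESA6* was also called in *yucca* (0.45) and for *yucca* over WT mock arrays (0.29). Without single arrays its response ran from 0.32 to 0.59 in *yucca*, and from 0.43 to 0.57 on the mean of genotypes. The uncalled difference in response between genotypes changed sign without single arrays, with ranges of −0.12 to 0.05 for *CESA5* (above 0 without WT mock replicate 2, 0.04, WT BR replicate 1, 0.053, or *yucca* BR replicate 1, 0.02) and −0.23 to 0.05 for *CESA6* (without *yucca* mock replicate 1, 0.049). On the values as deposited, *yucca* against WT turned to −0.77 and −0.81 for *CESA5* and to −0.64 and −0.73 for *CESA6* (mock and BR arrays), and all but the *CESA6* mock difference became calls. Without single arrays these differences, uncalled throughout, ran from 0.12 to 0.28 and from 0.06 to 0.26 for *CESA5*, and from 0.15 to 0.43 and from 0.11 to 0.24 for *CESA6*. The response of *CESA5* minus that of *CESA6* ran from 0.25 to 0.38 without single arrays. The replicate block changed no other call of either gene.

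Raised by BR were 401 probe sets in *yucca*, 275 in WT and 519 on the mean of both, against 1038, 508 and 1255 with no B criterion, 720, 486 and 863 with a proportion of 0.05, and 228 in a fit of only the *yucca* arrays and 342 in one of only the WT arrays, which turns the order of the genotypes. Without single arrays they ran from 277 to 403, 130 to 310 and 358 to 544. The interaction was called for 6, against 23 with a replicate block, 10 after quantile normalization, 13 with medians set equal, 47 with an intensity trend, 14 with a mean log2 above 6, and 0 to 146 without single arrays. *yucca* mock arrays had 1948 probe sets higher and 2000 lower than WT, against 265 and 15356 as deposited, 1172 and 1185 with a mean log2 above 6, 5885 and 6289 with no B criterion, and 3002 and 3196 with a proportion of 0.05. For BR arrays these were 1879 and 1946, against 204 and 15352, 1076 and 1105, 5922 and 6194, and 2992 and 3203. Without single arrays they ran from 1137 to 1880 higher and 1055 to 1901 lower for mock arrays, and from 1007 to 2135 and 1061 to 2194 for BR arrays. With the replicate numbers crossed between genotypes, an alternative added after seeing the data, 2024 were higher among BR arrays. In the same 4 arrays, 1844 were higher with the block uncrossed and 1696 with no block.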

Other observations

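The genes next to each member in the RefSeq annotation (TAIR10.1) were looked at after the values of *CESA5* and *CESA6* had been seen. Of the 3 protein-coding genes on either side of *CESA5*, 5 had a probe set named here. After BR treatment, 1.76% of all probe sets rose and 1.66% fell in *yucca*, and 1.21% rose and 0.945% fell in WT. None of these 5 genes was called in either genotype. Their log2 fold changes ran from −0.20 (*THO1*) to 0.42 (At5g09840) in *yucca* and from −0.15 (*THO1*) to 0.20 (At5g09890) in WT. Of the 3 on either side of *CESA6*, 4 had a probe set named here. At5g64710, *EC1.5* and At5g64730 were not called in either genotype. *RGF9* (At5g64770), a gene of the root meristem growth factor peptides that lies 3 genes from *CESA6*, rose in both, with log2 fold changes of 2.06 in *yucca* (adjusted p = 0.000144 from limma) and 1.72 in WT (adjusted p = 0.000778). It is on the study's lists of BR-raised and auxin-raised transcripts, so its rise in WT is not independent evidence. The study also measured this gene by quantitative PCR. The genes between *CESA6* and *RGF9* were not analysed here.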
